A study of Mus musculus with 8 samples.

Results

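The cholecystokinin and gastrin system was followed through its 4 genes on mouse expression arrays: the peptide hormone genes Cck and Gast and the receptor genes Cckar (type A) and Cckbr (type B). Every probe set whose single gene symbol in the platform annotation was one of these was taken, which gave 5 probe sets, 2 of them for Cckbr, out of 45037 probe sets of 18193 genes. Of these 5, 4 probe sets, 1 per gene, were at 50 or more (linear) on 4 or more arrays and were tested among 17865 probe sets. The study set RNA bound to the ribosomes of hypocretin neurons (immunoprecipitate, n = 4) against the RNA left over from the same preparations (unbound fraction, n = 4), which stands for the whole tissue. All 8 samples came from mice of the BAC transgenic line Hcrt JD218, on a mixed Fvb and c57/bl6j background, of both sexes and aged 6 to 12 weeks. Each sample pooled the diencephalon (thalamus and hypothalamus) of 5 mice. The transgene is driven by regulatory sequence of Hcrt, so cells outside that pattern carry no tag by design. A control pull-down from untagged mice was not analysed here.

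Cholecystokinin and gastrin are related peptides that are cut from longer precursors and end in the same amidated stretch. Both receptors couple mainly to Gq proteins, which act through phospholipase C and calcium. The type A receptor prefers sulfated cholecystokinin, while the type B receptor binds cholecystokinin and gastrin alike. Type B is the widespread form in the brain, and cholecystokinin is known to excite hypocretin neurons of the mouse through type A.

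The bases just before the annotated gene start are shown for the 3 genes that the promoter table matched. They are from RefSeq (build GRCm38.p6), read 5′ to 3′ on the strand of the gene, and capitals mark motif matches. Cck lies at chr9:121495695-121495944 (minus strand), Gast at chr11:100334157-100334406 (plus strand) and Cckbr at chr7:105425481-105425675 (plus strand). Cckar was not matched.
Cck: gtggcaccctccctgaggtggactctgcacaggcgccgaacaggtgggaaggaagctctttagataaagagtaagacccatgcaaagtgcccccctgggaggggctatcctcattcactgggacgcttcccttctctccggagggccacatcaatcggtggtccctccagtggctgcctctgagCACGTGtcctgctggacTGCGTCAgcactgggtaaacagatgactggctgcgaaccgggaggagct
Gast: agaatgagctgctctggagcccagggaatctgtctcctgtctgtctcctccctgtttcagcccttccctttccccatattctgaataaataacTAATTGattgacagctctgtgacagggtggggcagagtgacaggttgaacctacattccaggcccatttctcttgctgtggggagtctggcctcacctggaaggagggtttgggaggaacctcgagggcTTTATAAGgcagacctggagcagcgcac
Cckbr: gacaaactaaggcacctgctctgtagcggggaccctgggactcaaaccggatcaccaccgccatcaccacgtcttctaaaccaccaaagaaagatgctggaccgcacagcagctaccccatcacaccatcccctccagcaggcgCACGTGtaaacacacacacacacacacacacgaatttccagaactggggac
Both strands were searched for motifs chosen with these sequences in view. They were the cyclic AMP response element TGACGTCA with its variant form TGCGTCA, the E-box motif CACGTG, the TATA box TATAAA with its variant form TATAAG, and the homeodomain core TAATTA with its variant form TAATTG. The Cck stretch held TGCGTCA, which starts 49 bases before the gene, and CACGTG, which starts 66 bases before it. These motifs occur in 1.75% and 6.02% of all 32851 promoter windows of 250 bases. The Gast stretch held TAATTG, 157 bases before the gene, and TATAAG, 26 bases before it, which overlaps a reverse-strand TATAAA. They occur in 7.17%, 6.65% and 12.4% of windows. The Cckbr stretch of 195 bases held CACGTG, as do 4.17% of windows of that length. These matches are descriptions of the letters and show no binding.

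Values are the authors' log2 values, with 1 constant subtracted per fraction so that the hybridisation controls have equal means. A log2 value of 5.64 corresponds to the linear minimum of 50, under which a level is given only as a bound. A probe set was called when limma's Benjamini-Hochberg adjusted p over all tested probe sets was below 0.05 and the change at least 2-fold. 2 of the 4 member probe sets were called higher in the immunoprecipitate, Cckar and Gast, against 4.88% of all tested probe sets. The other 2, Cck and Cckbr, were called lower, against 45.1%. Gast and Cckbr passed the filter only through the fraction in which they were high. Their direction was thus set by the filter, and their calls give no support. The same holds for every list gene below that was under 50 on all arrays of 1 fraction. Cckar and Cck were at or above 50 on all 8 arrays. The fractions did not overlap on any array for these 4 probe sets, which also held for 56.9% of all tested probe sets (6.85% higher and 50.1% lower). The fractions differ in cell type and in ribosome binding at the same time, and fewer cells of a type cannot be told apart from less RNA per cell. As a check of the labels, Hcrt itself was 32.5-fold higher, in 4 of 4 pairs of fractions. Between 33.6% and 34.8% of probe sets on the immunoprecipitate arrays and 40.5% to 40.9% on the unbound arrays lay at or above 50, and the precision of all values is limited by the number of arrays.

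**Figure D1:**
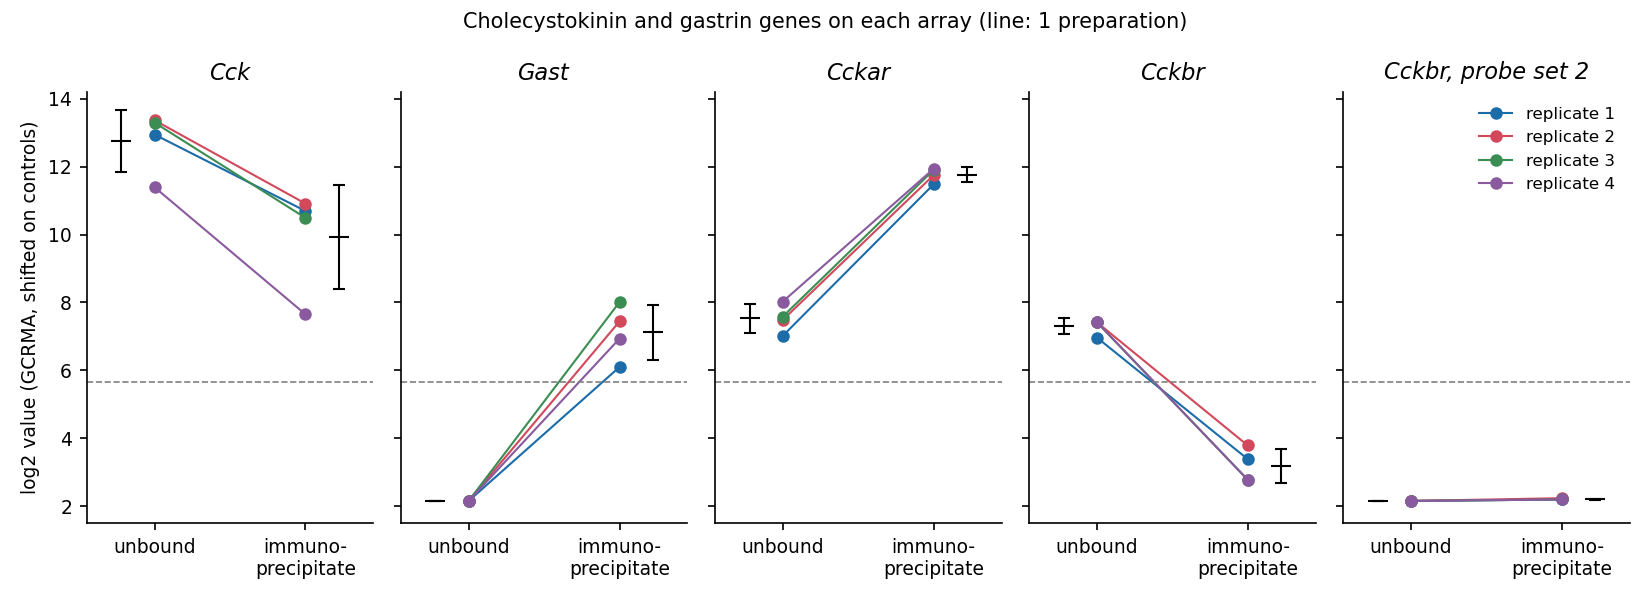
Log2 values of the 5 probe sets on every array (y axis), unbound on the left and immunoprecipitate on the right of each panel, with a line per preparation and the mean ± SD of 4 arrays beside the points. The dashed line is the linear value 50. Cckar rose in all 4 preparations, Gast lay at the lowest values of the unbound arrays, and Cck was lowest in replicate 4 in both fractions.

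Cckar, the type A receptor, was at log2 levels of 11.48, 11.75, 11.90 and 11.94 in immunoprecipitate replicates 1 to 4. In the matching unbound fractions it was at 7.02, 7.49, 7.59 and 8.03. Every immunoprecipitate thus lay far above every unbound fraction, and the 4 immunoprecipitates were close together. The means were 11.77 ± 0.21 and 7.53 ± 0.41 (SD, n = 4 each). Within the pairs of fractions Cckar was 22.1-, 19.2-, 20.0- and 15.1-fold higher. The fit gave a log2 fold change of 4.24 ± 0.25 (SE; 18.9-fold, limma adjusted p = 1.3e-06). By fold this was rank 11 among the 588 probe sets that were called higher and at or above 50 on all arrays. In the unbound fraction Cckar was lowest in replicate 1 and highest in replicate 4, as was Hcrt, at 9.77 and 11.06.

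Cckbr, the type B receptor, showed the reverse. Its tested probe set was at 6.97, 7.42, 7.42 and 7.42 in the unbound fractions, where replicates 2 and 3 held the identical deposited value. In the immunoprecipitates it was at 3.39, 3.79, 2.78 and 2.78, all under the minimum of 50. The receptor was thus measured in the tissue and not above the minimum in any pull-down. The means were 7.31 ± 0.23 and 3.18 ± 0.50 (SD, n = 4 each). Against the minimum Cckbr was at least 3.19-fold lower in the immunoprecipitate, and at least 2.52-, 3.44-, 3.44- and 3.46-fold lower within the pairs. The other Cckbr probe set stayed under 50 on all 8 arrays, between 2.15 and 2.24, and gives no comparison.

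The receptors were set against each other through the difference Cckar minus Cckbr on each array, in which any constant per array cancels. This log2 difference was 8.10, 7.96, 9.13 and 9.16 on the immunoprecipitate arrays and 0.05, 0.07, 0.17 and 0.60 on the unbound arrays. The fractions did not overlap. Only the change of the difference between fractions has a meaning, since 2 probe sets do not share a scale. With values under 50 raised to 50 it changed by 5.91 on the log2 scale, or at least 60.3-fold, in the same direction in 4 of 4 pairs. The opposite directions were known from earlier results when this contrast was chosen, and the filter set that of Cckbr, so the change is given as a description.

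Gast, the gastrin gene, was at 6.10, 7.44, 8.01 and 6.94 in the immunoprecipitates. In all 4 unbound fractions it was at 2.15, the lowest value on the unbound arrays. The transcript thus passed the minimum only in the pull-downs, where its spread was wide, with a mean of 7.12 ± 0.81 (SD, n = 4). Against the minimum of 50, on the scale of the hybridisation controls, it was at least 2.76-fold higher. The bounds within pairs were 1.36-, 3.45-, 5.12- and 2.43-fold. Gast passed the filter only through the immunoprecipitate arrays, as stated above.

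Cck, the cholecystokinin gene, was at 12.95, 13.37, 13.30 and 11.40 in the unbound fractions. In the immunoprecipitates it was at 10.70, 10.91, 10.49 and 7.65. It was above the minimum on all 8 arrays, lower in each immunoprecipitate than in its own unbound fraction, and lowest in replicate 4 on both sides. The immunoprecipitate mean was 9.94 ± 1.53 and the unbound mean 12.75 ± 0.92 (SD, n = 4 each). Within the pairs Cck was 4.76-, 5.48-, 6.98- and 13.4-fold lower. The log2 fold change was -2.81 ± 0.71 (SE; 7.02-fold lower, limma adjusted p = 0.0057). Without immunoprecipitate replicate 4 the fold was 3.85 (limma adjusted p = 0.0043), and without both arrays of replicate 4 it was 5.33. With the preparation as a block the SE was 0.24 in place of 0.71 and the limma adjusted p was 3.7e-05. By fold Cck was rank 269 of the 4938 probe sets that were called lower and at or above 50 on all arrays.

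In replicate 4 Cck was low in both fractions, and markers of other cells were low in the pull-down, less so or not at all in the unbound fraction. Replicate 4 minus the mean of replicates 1 to 3 was -3.05 on the log2 scale for Cck in the pull-downs and -1.81 in the unbound fractions. The mean level of thalamic neuron markers differed by -1.68 in the pull-downs and -0.56 in the unbound fractions. Microglia markers differed by -1.56 and -0.53, oligodendrocyte markers by -1.36 and -0.09, and astrocyte markers by -1.06 and -0.09. The list drawn up for cholecystokinin interneurons, which holds Cnr1 and Vip beside markers of GABAergic neurons, differed by -1.09 and 0.10. Markers of melanin-concentrating hormone neurons differed by -0.80 and 0.36. Of the other 3 member genes, Cckar did not share this shift and differed by 0.23 and 0.66. Gast differed by -0.25 in the immunoprecipitate, and Cckbr by -0.54 and 0.16. Gast was under 50 on all unbound arrays and Cckbr on all immunoprecipitate arrays, so whether they shared it cannot be told. The 3′ minus 5′ signal of Gapdh, a measure of RNA integrity, was 4.50 and 3.36 in replicate 4 and between 1.94 and 2.31 on the other 6 arrays. For Actb it was also highest in replicate 4 of each fraction, at 4.11 and 3.80. The next values were 4.05 in immunoprecipitate replicate 1 and 3.45 in unbound replicate 3, a smaller gap than for Gapdh. The part of these shifts in the Cck result was not tested.

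**Figure D2:**
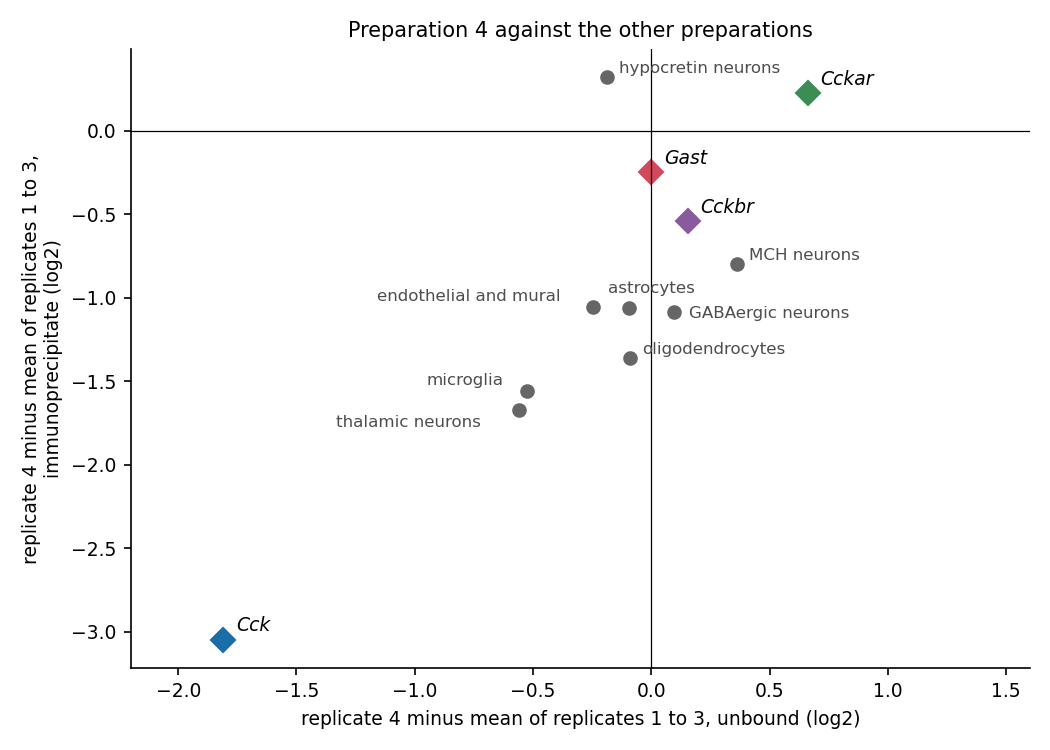
Replicate 4 minus the mean of replicates 1 to 3 on the log2 scale, in the unbound fraction (x axis) and the immunoprecipitate (y axis). Diamonds are the 4 genes, grey points the mean level of a marker list over its tested genes (MCH, melanin-concentrating hormone). The point labelled GABAergic neurons is the list drawn up for cholecystokinin interneurons, with Cnr1 and Vip in it. Cck lies at -1.81 and -3.05, below all marker lists, and Cckar above 0 on both axes.

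Markers of cells outside the tagged population were measured on the same arrays. All 7 oligodendrocyte, 8 astrocyte, 5 microglial and 2 endothelial or mural markers tested were called lower. Over all genes tested, 44.2% were called lower and 4.74% higher, and the lists were chosen with earlier results known. Oligodendrocyte markers still averaged 9.72 to 11.22 on the immunoprecipitate arrays, against 12.67 to 13.05 on the unbound arrays. Astrocyte markers averaged 6.46 to 8.06 against 10.02 to 10.22, and microglial markers 5.31 to 7.21 against 8.63 to 9.22. Endothelial and mural markers averaged 5.03 to 6.66 against 7.57 to 7.94. Under 50 in every immunoprecipitate were Sox9 of astrocytes, C1qa and Cx3cr1 of microglia, Cldn5 of endothelium and Lef1 of the thalamus. Thalamic markers (5 of 6 lower) averaged 7.44 to 9.44 against 10.81 to 11.63. Of a list drawn up for cholecystokinin interneurons 5 genes were tested (Cnr1, Vip, Slc32a1, Gad1 and Gad2), of which the last 3 mark GABAergic neurons in general. All 5 were lower and averaged 8.33 to 9.55 against 11.04 to 11.62. All 3 markers of melanin-concentrating hormone neurons were lower, at 8.15 to 9.56 against 10.96 to 11.47. Of 6 hypocretin neuron markers 5 were higher, at 12.45 to 12.89 against 9.42 to 9.74. The part of these cells in the Cck signal of the immunoprecipitates was not tested.

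Genes tied to the making of amidated and sulfated peptides from precursors such as those of Cck and Gast were examined next. The peptidase Tpp2 was on the same list. Of 13 tested genes 5 were called higher and 2 lower, against 4.74% and 44.2% of the 10398 genes tested. On the scale of the poly-A controls these counts were 2 and 8, where 125 of all 17865 tested probe sets were higher and 16823 lower. The median was 0.45 on the log2 scale, against -0.85 over all genes. Pcsk1, a prohormone convertase that cuts peptide precursors in the regulated pathway, was at 10.62, 11.46, 11.85 and 11.56 in the immunoprecipitates and at 5.90, 5.90, 5.69 and 6.58 in the unbound fractions. It was among the genes called higher. Pam, which makes the terminal amide, was at least 2.99-fold higher, with all unbound arrays under 50, so the filter set its direction. The convertase Pcsk5 was at least 5.34-fold lower, with 1 of 4 immunoprecipitates at or above 50, and the carboxypeptidase Cpd fell 5.21-fold (limma adjusted p = 0.0018). The tyrosine sulfotransferases Tpst1 and Tpst2, which can sulfate cholecystokinin precursors, gave 0.68 and -0.62 on the log2 scale and were not called. Tpp2, a peptidase that inactivates cholecystokinin, gave -0.75 and was not called either. These 3 were named after their values were seen.

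Downstream of both receptors, 7 of 9 tested Gq effector genes were lower and 0 higher, with a median of -1.84 on the log2 scale, or -1.61 with genes under 50 at their bound, against 44.2% lower and a median of -0.85 over all genes. After median centring 5 were lower, against 4228 of all 17865 tested probe sets. After quantile normalization 4 were lower, against 3715 of these probe sets. Plcb1, a phospholipase C, fell 7.13-fold (limma adjusted p = 0.00010). Plcb4 fell 4.49-fold, the kinase Prkce 4.17-fold, and the calcium release channel Itpr2 was at least 2.05-fold lower. All immunoprecipitates of Itpr2 were under 50, so the filter set its direction. Gna11, a Gq family subunit, gave -0.11 and was not called, while Gnaq fell 2.02-fold, both named after their values were seen. Among 7 genes that switch such receptors off, 3 were lower and 0 higher, with a median of -0.88, both near the 44.2% and -0.85 of all genes. Median centring gave 1 lower and 1 higher, against 4228 and 3150 of the 17865 probe sets. The poly-A controls gave 7 and 0, against 16823 and 125. Grk3, a receptor kinase, fell 4.20-fold, Rgs4, which shortens Gq signals, 3.47-fold, and the arrestin Arrb1 3.42-fold. Without both arrays of replicate 3 the number lower was 5.

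**Figure D3:**
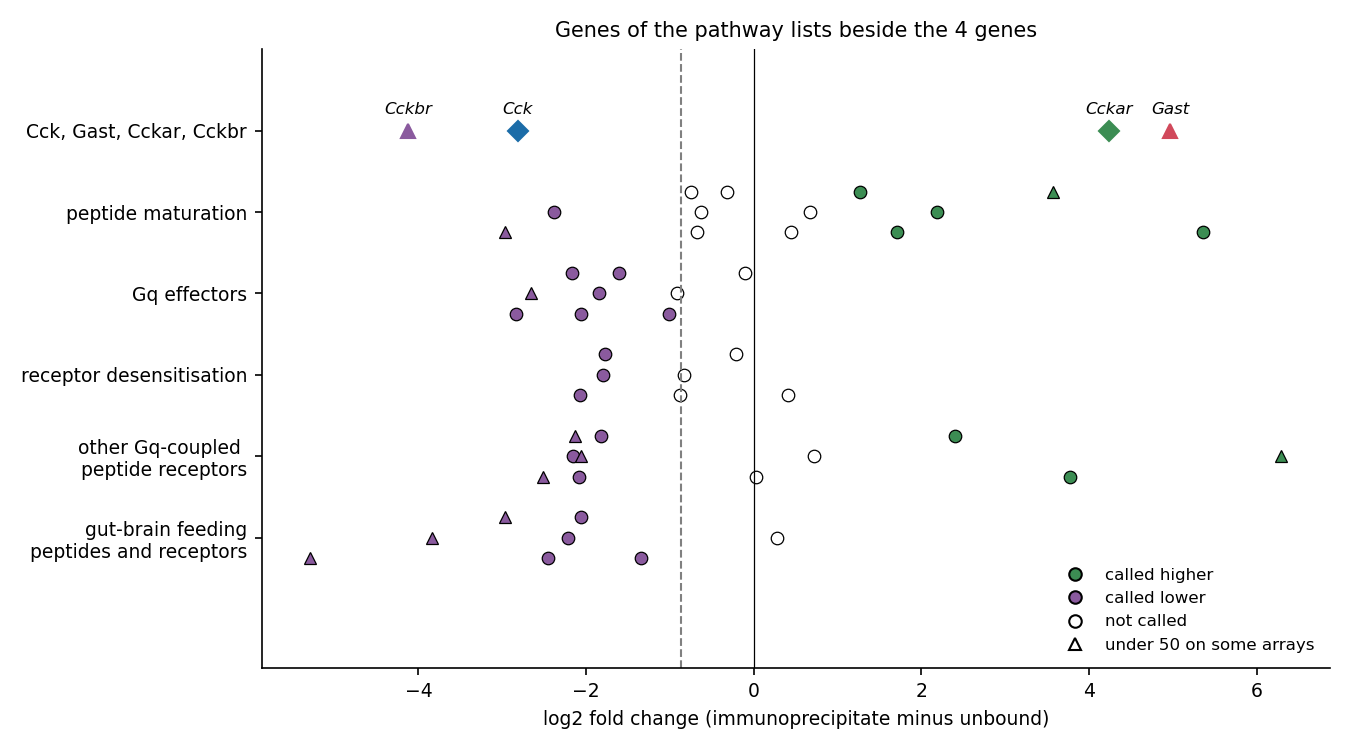
Log2 fold change (x axis, immunoprecipitate minus unbound) of each tested gene of 5 lists and of the 4 member genes. Filled circles were called, open ones not, triangles mark genes under 50 on some arrays, whose fitted folds are no bounds, and the dashed line is the median of all tested probe sets. Gq effectors lie to the left, while the peptide maturation genes and other Gq-coupled receptors spread to both sides, as do the 4 members.

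Among other peptide receptors that couple to Gq, 3 of 11 tested genes were higher and 6 lower. Over all genes the shares were 4.74% and 44.2%, so the number lower is near the general share. Of those lower, 2 were under 50 in all immunoprecipitates, with bounds short of 2-fold, so the filter set their direction. The median was -1.82 on the log2 scale, or -0.52 with genes under 50 at their bound. After quantile normalization 5 were higher and 3 lower, against 3091 and 3715 of all 17865 tested probe sets. Avpr1a, a vasopressin receptor, was at 9.30, 9.65, 10.03 and 10.40 in the immunoprecipitates and under 50 in all unbound fractions. The filter thus set the direction of Avpr1a. Trhr, the receptor for thyrotropin-releasing hormone, was at 12.09, 12.19, 12.34 and 12.29 against 9.05, 8.15, 7.82 and 8.79. Ntsr1, a neurotensin receptor, rose 5.27-fold (limma adjusted p = 0.00054), but gave 0.43 and no call on the poly-A controls. Prokr2, a prokineticin receptor, was at least 1.61-fold lower. The hypocretin receptor Hcrtr1, chosen with its value in view, gave 0.03 and was not called.

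Of 8 tested peptides and receptors that, like cholecystokinin, join gut, brain and feeding, 7 were lower and 0 higher, against 44.2% and 4.74% of all genes. The median was -2.34, or -2.17 with bounds. Median centring gave 6 lower and 1 higher, against 4228 and 3150 of all 17865 tested probe sets. The neuropeptide Y receptors Npy5r and Npy2r were at least 6.89- and 5.27-fold lower, and Npy2r reached 50 on 1 of 4 immunoprecipitate arrays. Npy5r reached it on none, so the filter set its direction. Grp, the gene of gastrin-releasing peptide, which stimulates gastrin release in the stomach, was at least 4.36-fold lower. It was at 6.94, 6.53, 4.26 and 3.64 in the immunoprecipitates. The feeding peptide gene Cartpt fell 5.47-fold. Nts, the neurotensin gene, chosen in the same way, gave 0.28 and was not called.

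Likeness in pattern was measured as the root mean square distance between the 4 within-pair log2 differences of a gene and those of a member, over 10397 genes and 4 pairs. Nearest to Cckar were Gchfr, which regulates tetrahydrobiopterin synthesis (0.30), Gm10421 (0.31), Ly96, a partner of the toll-like receptor for endotoxin (0.34), the Wnt agonist Rspo1 (0.36) and the bicarbonate transporter Slc4a8 (0.42). Unlike Cckar, which was measured on all 8 arrays, 4 of these 5 were under 50 in all unbound fractions and Rspo1 in 2 of 4. Nearest to Cckbr were Rasal1, a Ras regulator (0.18), the Hippo pathway cofactor Yap1 (0.19), the kinase Smg1 (0.22), Fam122b (0.25) and Synpo, an actin-associated protein (0.26). For 4 of these 5 the immunoprecipitates all lay under 50, and Smg1 reached it on 1 array.

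Nearest to Gast were Pcsk1 (0.45), Tmem114 (0.48), Thbs2 (0.48), the dynorphin gene Pdyn (0.62) and Crhr2, a receptor for corticotropin-releasing hormone family peptides (0.64). The distances were larger than for the other members, and Tmem114, Thbs2 and Crhr2 were also under 50 in all unbound fractions. Nearest to Cck were Sparcl1, a matrix protein of astrocytes (0.08), Paqr8 (0.10), the growth factor receptor Fgfr2 (0.13), 2310022B05Rik (0.13) and Crym, a thyroid hormone binding protein (0.13). Fgfr2 and Crym reached 50 on 3 of 4 immunoprecipitate arrays and the other 3 on all.

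The scale between fractions rests on the chosen controls, because each fraction was normalized by itself. Folds of single genes given as at least were taken on the hybridisation controls and can fail on another scale. Over all tested probe sets the median log2 fold change was -0.87, and 9.76% of the calls were higher. Median centring moved that median by 0.81, with 42.7% of the calls higher, and quantile normalization by 0.84, with 45.4%. The poly-A controls moved it by -1.97, with 0.738%. These controls averaged 7.17 to 10.55 on the unbound arrays and 10.03 to 11.22 on the immunoprecipitate arrays. The hybridisation controls spread less, at 10.43 to 11.43 and 10.60 to 11.32. Cckar and Cck kept their direction and call on all of these scales. The fitted values of Gast and Cckbr did too, but the filter set their direction, so this gives no support. The bounds of Gast and Pam, 1.47 and 1.58 on the log2 scale, were smaller than the move of -1.97. No rise of these 2 genes is thus bounded on the poly-A controls. Cckar ranged from 2.27 on the poly-A controls to 5.05 after quantile normalization, and the fitted value of Cckbr, which rests on arrays under 50, from -6.09 to -2.97 on the same scales. Cck was at -2.00 after median centring (limma adjusted p = 0.030) and at -4.78 on the poly-A controls. Genomic length also went with the changes. Cck and Gast are in the shortest 20% of genes by RefSeq length, where 206 genes were higher and 492 lower (median -0.13), and both receptors in the next 20%, with 108 and 689 (median -0.52).

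**Figure D4:**
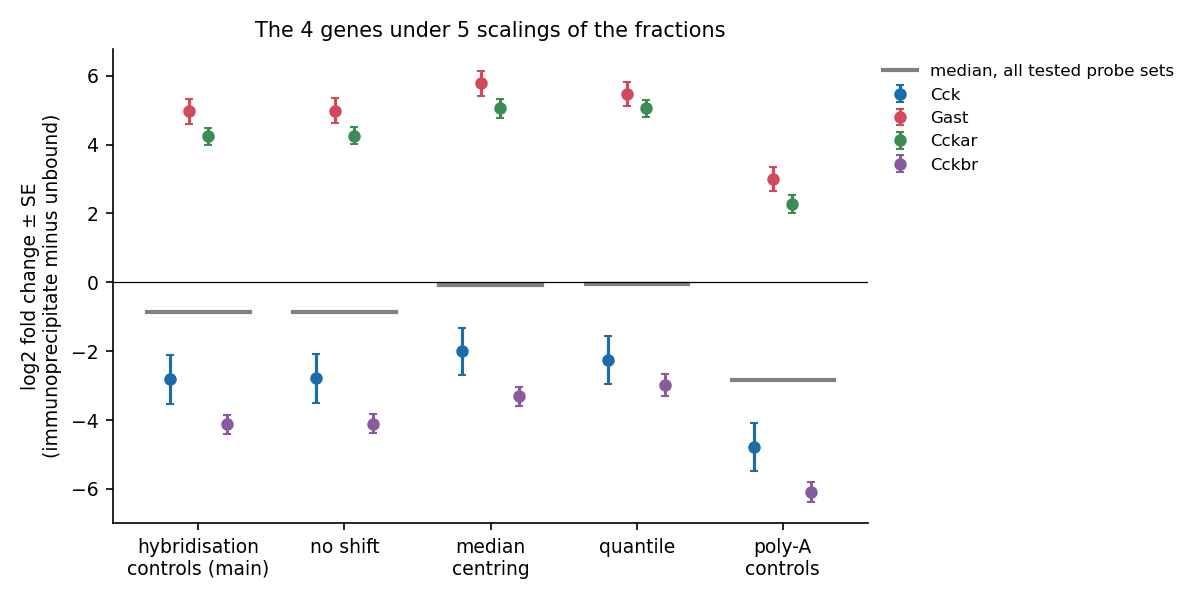
Log2 fold change ± SE (y axis, immunoprecipitate minus unbound) of the 4 genes under 5 scalings of the fractions, with the median of all tested probe sets as grey bars. Cckar and Gast lie above 0 and Cck and Cckbr below it on every scaling, and the values of Gast and Cckbr are fitted values that rest on arrays under 50.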

How the data were processed

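Total RNA of 4 immunoprecipitates and 4 unbound fractions, 20 ng each, was amplified over 2 cycles and hybridised to 1 Affymetrix mouse array per sample, per the labels' protocols. The authors deposited normalized values for each array, taken here as log2 from their range. GCRMA is named in the submitters' processing notes (version not given in the sources used here), and the series' design text says that each group was normalized by itself. Following that text, 1 constant per fraction was subtracted so that 18 hybridisation controls had equal means, which as deposited differed by 0.02. 64 control probe sets were left out. Probe sets at or above 50 on at least 4 arrays entered limma (3.58.1; R 4.3.3) with lmFit and eBayes, trend on and no block, and were called at an adjusted p under 0.05 and 2-fold. Where arrays lay under 50, values were raised to 50 and the fold given as at least, on the scale of the hybridisation controls. For genes with several tested probe sets the one of highest mean stands for the gene, and the tested probe sets of a list gene named by the rule never differed in call. Platform symbols named 34945 probe sets with 1 gene, and 2 list genes were found through an older symbol.

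Replicate numbers join the fractions of 1 preparation per the labels. After removal of group means, arrays correlated at 0.44, 0.33, 0.25 and 0.59 where they shared a number, and at most at 0.26 between others. Members and lists were chosen with earlier results of these data known. Named genes are the members, up to 4 called genes with the largest change of each list discussed (or up to 2 with the highest mean where fewer than 2 were called), and the 5 genes nearest in pattern. List genes named after their values were seen are marked. Of marker lists, only genes under 50 in all immunoprecipitates are named. Alternatives were the unshifted values, median centring, a shift on poly-A controls (24 probe sets), quantile normalization, a minimum of 100 or none, a fit with the trend off, the replicate block, 4-fold or no fold threshold, and leaving out arrays. The fit was tested on simulated data. Exact tests used scipy 1.17.1, and plots matplotlib 3.10.9 in Python 3.11.15.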

Additional observations from a re-analysis of the deposited data

Results flagged for a closer look

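In 48 groups of 4 arrays, those of the members, Hcrt and the named genes of the lists, 1 array was searched for that stood apart from the other 3 by Dixon's ratio. It was found in 8 groups, and chance gives about 5% of groups. Cck in immunoprecipitate replicate 4 was at 7.65 on the log2 scale, with the other arrays at 10.49 to 10.91. Cckbr in unbound replicate 1 was at 6.97, with the others at 7.42, 2 of which held the same deposited value. Arrb1 was at 8.95 in immunoprecipitate replicate 4 (others 8.24 to 8.34) and at 11.13 in unbound replicate 4 (others 9.83 to 9.98). Pam was at 4.04 in unbound replicate 4 (others 3.52 to 3.57), and Itpr2 at 4.03 in immunoprecipitate replicate 3 (others 4.01), all under the minimum of 50. Npy5r was at 5.46 in immunoprecipitate replicate 1 (others 2.33 to 2.39), also under 50, and at 8.55 in unbound replicate 2 (others 8.36 to 8.39). 4 of the 8 lay in replicate 4.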

How the results depend on the processing

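Cck, Cckar and Cckbr kept their direction and call under all 20 alternatives of the fit and Gast under the 19 that tested it, since a minimum of 100 left it out. Adjusted p ran from 3.7e-05 to 0.030 for Cck and from 5.5e-07 to 0.00015 for Cckar. The filter set the direction of Cckbr and Gast. Probe sets called higher numbered 872 and lower 8059. Median centring gave 3150 and 4228, quantile normalization 3091 and 3715, the poly-A controls 125 and 16823, and a 4-fold threshold 257 and 3714. 1402 were higher with no filter and 1489 with no fold threshold. With the replicate block 931 were higher and 8192 lower, and it changed no call of a gene named here. The receptor contrast (change in Cckar minus Cckbr), taken with Cckbr under 50 in the pull-downs and so no measured size, was 8.36 with or without the replicate block. Paired by preparation, the exact sign permutation p was 0.125, the smallest that 4 pairs allow. Since the filter set the direction of Cckbr, the p-values of this contrast give no support. Leaving out 1 array or both arrays of a preparation gave 8.17 to 8.57, with exact p of 0.0571 and 0.100, the smallest those designs allow. It was 8.02 after quantile normalization. The other Cckbr probe set is under 50 on all arrays and checks nothing. Of the 39 other named genes 8 of 774 alternatives ended a call and 0 reversed a direction: Arrb1 after median centring and quantile normalization, Rgs4 after median centring, Grp after quantile normalization, Ntsr1 on the poly-A controls, and Crym after both centrings and without both arrays of replicate 1. The counts of list genes under the alternatives were added after seeing the data. The number of arrays, and signal under 50 for Cckbr and Gast, limit what folds can be given.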

Other observations

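Replicate 4 stood apart in more genes than Cck, examined after its values were seen. In 18 tested probe sets, 0.101% of all and Cck among them, replicate 4 lay at least as far below the mean of replicates 1 to 3 as Cck did in both fractions. The largest gaps were in 4 probe sets of Ttr, the transthyretin gene of the choroid plexus, at -11.52 in the unbound fraction and -5.59 in the immunoprecipitate for 1 of them. Ecrg4, also high in choroid plexus, was at -8.21 and -4.00. Neurod6, a transcription factor of pyramidal neurons of the cortex and hippocampus, was at -6.43 and -3.40. Pou4f1, a factor of habenular neurons, was at -3.21 and -3.35. For Tcf7l2, a factor of thalamic neurons, 1 probe set was at -2.10 and -3.33. The Tcf7l2 probe set of highest mean was not among the 18. In replicate 4 its level was 11.23 in the unbound fraction (others 11.26 to 12.39) and 6.67 in the immunoprecipitate (others 8.16 to 9.69). Crym, which also lay near Cck in its within-pair differences, was at -1.90 and -3.17. The median tested probe set differed by 0.06 in the unbound fraction and by less than 0.01 in the immunoprecipitate. The part of what these genes share in the level of Cck was not tested.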
